A study of Mus musculus with 16 samples.

Results

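The chemokine receptor CXCR3 and its ligands were followed through single-cell RNA profiles of immune cells from mouse melanomas. The members are set by gene symbol, a rule that uses no measured value: the ligand genes Cxcl9, Cxcl10 and Cxcl11, and Cxcr3, the receptor gene. Of these 4 members, 3 were analysed, among 32285 genes in all. Cxcl11 was not analysed here.

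CXCL9, CXCL10 and CXCL11 are small secreted chemokines that are made mainly after interferon gamma reaches a cell, through transcription factors such as IRF1. CXCL10 also answers to type I interferon and to NF-kB. Their shared receptor, CXCR3, is a G protein-coupled receptor carried by activated CD8 and T helper 1 cells, a part of the regulatory T cells and NK cells, and it guides these cells into inflamed tissue and tumours. In tumours the ligands are known as products of macrophages, dendritic cells, fibroblasts and endothelial cells.

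The mice were C57BL/6J and carried subcutaneous Bro4.1 B16 melanoma tumours grown from 1000000 cells that were either B2m-null or control. B2m encodes the light chain that MHC class I needs to reach the cell surface. Animals received 100 µg of an agonist antibody, anti-CD40, or a rat IgG2a isotype antibody by intraperitoneal injection on days 6, 9 and 12, and tumours were taken on day 14. CD40 is a receptor of antigen-presenting cells that CD40 ligand on T helper cells normally engages. The 4 groups were control tumours with isotype (5 mice), control tumours with anti-CD40 (2 mice), B2m-null tumours with isotype (5 mice) and B2m-null tumours with anti-CD40 (4 mice). Below they are called, in this order, control isotype, control CD40, then B2m-null isotype with B2m-null CD40 last. In the labels the B2m genotype is written as a property of the animal, but the series design places the loss in the implanted cells, and this reading is used here. Cells were enriched for CD45, the pan-leukocyte surface protein, and each mouse was marked with a hashtag antibody before its pool was loaded on a droplet lane.

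The ligand genes lie side by side on chromosome 5, and the receptor gene lies on the X chromosome. In the GENCODE annotation of GRCm38, release 21, Cxcl9 (ENSMUSG00000029417) is at chr5:92321347-92328079, Cxcl10 (ENSMUSG00000034855) at chr5:92346638-92348889 and Cxcl11 (ENSMUSG00000060183) at chr5:92359544-92365485, all on the minus strand. The annotation lists Cxcl11 as a polymorphic pseudogene. The 3 ligand genes span 44139 bases. Cxcr3 (ENSMUSG00000050232) is at chrX:101731535-101734269 on the minus strand.

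The promoters of the members that could be matched, 3 of 4, are shown because the 2 ligands below did not move alike in every group. Each is the 250 bases before the start of transcription in RefSeq, build GRCm38.p6, minus strand, written 5′ to 3′. They come from chr5:92328080-92328329 for Cxcl9, chr5:92348890-92349139 for Cxcl10 and chrX:101734148-101734397 for Cxcr3. Capitals mark matches to a motif searched on both strands: the interferon-stimulated response element (GAAANNGAAA) and the NF-kB motif (GGGNNNNNCC) in the ligands, and the T-box motif (TCACAC) in the receptor.
Cxcl9: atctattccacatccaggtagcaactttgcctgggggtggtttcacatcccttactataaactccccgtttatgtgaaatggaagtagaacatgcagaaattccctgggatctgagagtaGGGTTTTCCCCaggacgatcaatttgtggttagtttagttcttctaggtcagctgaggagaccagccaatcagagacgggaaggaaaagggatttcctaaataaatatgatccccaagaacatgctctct
Cxcl10: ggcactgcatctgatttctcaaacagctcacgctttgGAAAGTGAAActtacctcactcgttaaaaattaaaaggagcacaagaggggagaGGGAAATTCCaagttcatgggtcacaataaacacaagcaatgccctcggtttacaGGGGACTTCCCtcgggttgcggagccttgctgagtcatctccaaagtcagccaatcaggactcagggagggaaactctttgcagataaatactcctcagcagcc
Cxcr3: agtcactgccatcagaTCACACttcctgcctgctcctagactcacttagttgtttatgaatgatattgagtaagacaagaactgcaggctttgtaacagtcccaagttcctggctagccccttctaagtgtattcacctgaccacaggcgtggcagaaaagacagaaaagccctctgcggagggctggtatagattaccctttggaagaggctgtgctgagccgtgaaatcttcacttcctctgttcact

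The Cxcl10 promoter holds an interferon-stimulated response element, at 213 to 204 bases before the start, which 2.98% of 32851 promoters of the same length hold. It also holds NF-kB matches at 159 to 150 and at 104 to 94 bases, where the latter is a pair of overlapping matches. The Cxcl9 promoter holds an overlapping pair of NF-kB matches at 130 to 120 bases and no match to the response element in this window. Neither ligand window held the gamma-activated site TTCNNNGAA, which 7.02% of promoters hold. The Cxcr3 window holds the T-box motif at 234 to 229 bases, a motif found in 12.3% of promoters, and an NF-kB match at 139 to 130 bases that is left in lower case. The NF-kB letters occur in 45.8% of promoters. These matches are descriptions of letters and say nothing of binding. The GENCODE model of Cxcr3 begins further upstream than the RefSeq start and overlaps the printed window.

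Profiles came from 8 lanes with 116552 cell barcodes and unique molecular identifiers (UMIs, counted transcripts) at a median of 1715 to 4225 UMIs per barcode. After filters 91073 cells were kept, and 74987 of them were assigned to 1 of 16 mice, with 832 to 15993 cells each. The 2 control CD40 lanes were labelled technical replicates of 1 pool, so that group rests on 2 mice of a single pool. In lane 1 of B2m-null isotype only 37.7% of barcodes could be assigned to a mouse, and 79.0% of its monocytes had none. Pairs of lanes shared 41 to 92 barcode sequences. As a check of the labels, B2m in melanoma cells was 1101 to 2130 counts per 1000000 UMIs (CPM) in the 4 control lanes and 197 to 495 CPM in the 4 B2m-null lanes. In macrophages, which are cells of the host, B2m was 3878 to 5836 CPM in the control lanes and 2862 to 4537 CPM in the B2m-null lanes. A cluster of 4638 cells was left unnamed because 35.0% of its cells met the rule for T cell and macrophage transcripts together. It held Cxcl9 at 640 CPM and Cxcl10 at 405 CPM and is not part of the monocytes and macrophages below. Cells were grouped without the members, and groups of cells are named only from preset markers, so macrophages, for example, are macrophage-like cells. Kept cells with a mouse held 193357 Cxcl9, 138644 Cxcl10 and 8294 Cxcr3 counts. Because lanes hold different cells of a tumour suspension, fewer cells of a type and less RNA per cell cannot be told apart in sums over all cells.

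In monocytes and macrophages together, both ligands were lower in B2m-null than in control tumours under isotype, and both rose with anti-CD40 in B2m-null tumours. With isotype, Cxcl9 in control tumours was 669, 525, 654, 622 and 442 CPM in the 5 mice, and in B2m-null tumours it was 213, 63.1, 282, 350.0 and 89.2 CPM. With anti-CD40 the level was 458, 915, 623 and 780 CPM in the 4 mice with B2m-null tumours and 502 and 1132 CPM in the 2 mice with control tumours. All 5 B2m-null isotype mice were thus below every mouse of the other 3 groups.

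Cxcl9 in these cells fell in B2m-null against control tumours under isotype by 1.58 ± 0.38 on the log2 scale (SE, edgeR adjusted p = 0.0189, 5 against 5 mice). In this comparison 8.61% of 12435 genes passed the adjusted threshold of 0.05 in either direction, the direction also meant where a share of genes that passed is given without one. With anti-CD40 in B2m-null tumours Cxcl9 rose 3.95-fold, a log2 change of 1.98 ± 0.40 (edgeR adjusted p = 0.00121, 4 against 5 mice), where 35.8% of genes passed. Both comparisons share the 5 B2m-null isotype mice, and the 5 control isotype mice serve both the genotype comparison and the anti-CD40 comparison in control tumours. In control tumours the log2 difference with anti-CD40 was 0.62 ± 0.47 (edgeR adjusted p = 0.365), where 21.8% of genes passed, and its 2 treated mice lay far apart. Under anti-CD40 the genotypes differed by -0.22 ± 0.50 (edgeR adjusted p = 0.816, 10.3% of genes passed). The difference between the 2 responses to anti-CD40 was 1.36 ± 0.64 for Cxcl9 (edgeR adjusted p = 0.143, 18.6% of genes passed).

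Cxcl10 moved in the same direction as Cxcl9 in B2m-null tumours, and its response to anti-CD40 differed between the genotypes. With isotype, Cxcl10 was 995, 944, 798, 390.1 and 628 CPM in mice with control tumours and 204, 241, 321, 354 and 114 CPM in mice with B2m-null tumours. With anti-CD40 it was 747, 987, 389 and 451 CPM in B2m-null tumours and 311 and 420.2 CPM in control tumours. Of the control CD40 mice, 1 was below all control isotype mice and the other within their range, and the B2m-null CD40 mice all sat above the B2m-null isotype mice.

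Under isotype Cxcl10 fell by 1.67 ± 0.32 in B2m-null against control tumours (log2, edgeR adjusted p = 0.00717). With anti-CD40 in B2m-null tumours it rose 2.99-fold, a log2 change of 1.58 ± 0.33 (edgeR adjusted p = 0.00167). In control tumours the log2 difference was -0.92 ± 0.43 (edgeR adjusted p = 0.135), and -0.33 without lane 1 of control isotype (edgeR adjusted p = 0.697). With each cell thinned to 1000 UMIs it was -1.30 (edgeR adjusted p = 0.0346), past the threshold. The response of Cxcl10 to anti-CD40 differed between the genotypes by 2.5 ± 0.55 (log2, edgeR adjusted p = 0.00733). Per count of Cxcl10 these cells held 0.869 ± 0.416 counts of Cxcl9 in control isotype (SD, n = 5), 2.15 ± 0.762 in control CD40 (n = 2), 0.791 ± 0.312 in B2m-null isotype (n = 5) and 1.22 ± 0.535 in B2m-null CD40 (n = 4).

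These calls did not all hold when libraries were left out. Without lane 1 of control isotype the genotype difference under isotype was -1.44 for Cxcl9 (edgeR adjusted p = 0.266) and -1.08 for Cxcl10 (edgeR adjusted p = 0.266). Without lane 1 of B2m-null isotype it was -1.42 for Cxcl9 (edgeR adjusted p = 0.182) and -1.69 for Cxcl10 (edgeR adjusted p = 0.132). The difference between the Cxcl10 responses was not called without control CD40 mouse 1 (2.24, edgeR adjusted p = 0.0702) or without lane 1 of control isotype (1.92, edgeR adjusted p = 0.0566). The Cxcl10 level moved with the lane: in B2m-null CD40 its mean was 867 CPM over the 2 mice of lane 1 and 419.9 CPM over the 2 of lane 2, and in control isotype 912 CPM in lane 1 (3 mice) and 509 CPM in lane 2 (2 mice). The rise of both ligands with anti-CD40 in B2m-null tumours passed the threshold without any single mouse or lane. For Cxcl10 that rise ran from 1.011 to 1.99 with 1 lane left out, with edgeR adjusted p of up to 0.0485, and for Cxcl9 from 1.84 to 2.10. CD8 T cell markers in these cells, 5 of 5 with counts, moved with anti-CD40 too: their summed level ranged over 7.47 to 17.6 CPM in control isotype, 29.2 to 42.2 in control CD40, 6.15 to 17.4 in B2m-null isotype and 18.7 to 31.2 in B2m-null CD40. The 5 monocyte markers summed to 884 to 2936 CPM in control isotype, 339 to 546 in control CD40, 526 to 1868 in B2m-null isotype and 696 to 1599 in B2m-null CD40, so in control tumours they were lower in both treated mice. The 5 neutrophil markers were at 27.3 to 54.3, 60.0 to 74.8, 27.8 to 46.6 and 43.0 to 105 CPM, and the 5 melanoma markers at 84.6 to 109.8, 88.3 to 97.2, 87.0 to 111 and 55.4 to 64.2 CPM. Their part in the result was not tested.

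**Figure D1:**
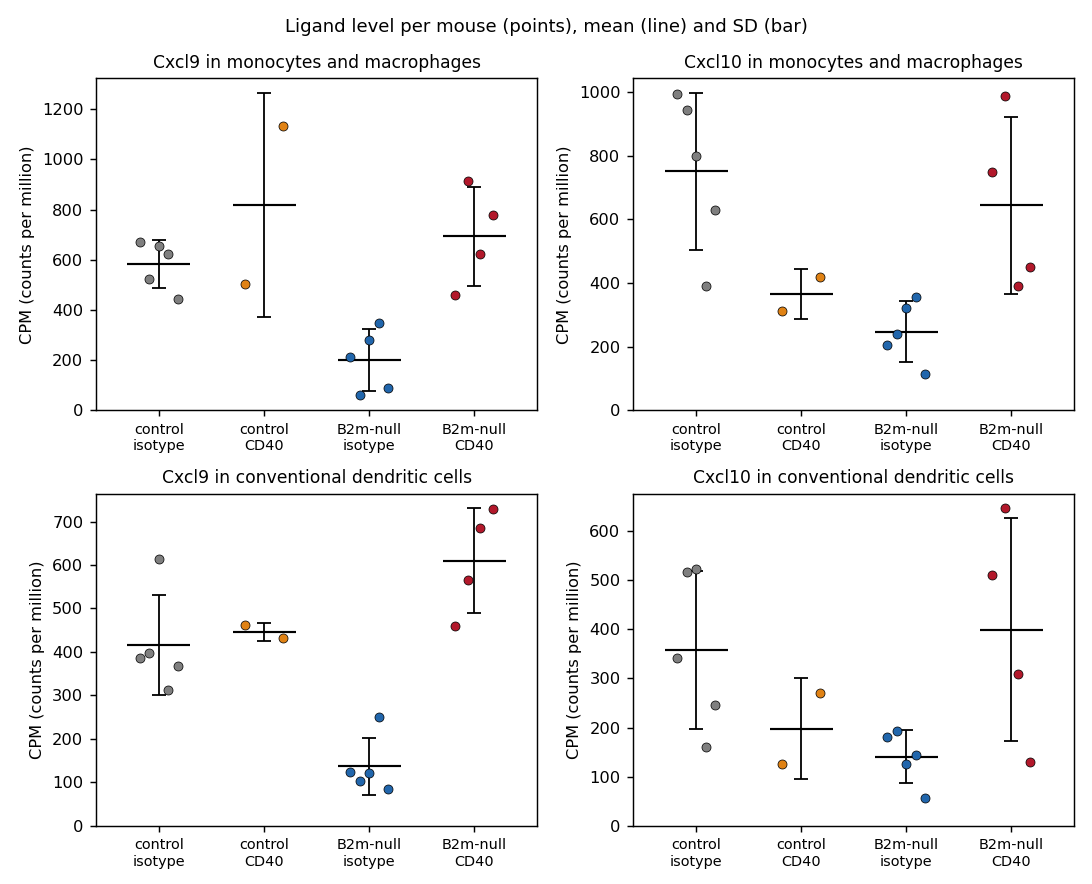
Cxcl9 (left) and Cxcl10 (right) in CPM, in monocytes and macrophages (top) and conventional dendritic cells (bottom), for the 4 groups; points are mice, lines are means and bars SDs. The 5 B2m-null isotype mice sit lowest for Cxcl9 in both sets of cells. For Cxcl10 the mean of B2m-null isotype is the lowest in both sets, followed by that of control CD40.

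The share of cells with at least 1 ligand UMI mostly moved in the same direction as the summed level. Between genotypes under anti-CD40 it did not for Cxcl9, whose level was lower in B2m-null tumours and whose share was not. Cells were thinned to 1000 UMIs each so that depth was equal, which left out 913, 1569, 570 and 479 shallower cells of the groups in the order above. At that depth Cxcl9 was seen in 22.9 ± 5.21% of monocytes and macrophages in control isotype, 26.9 ± 13.4% in control CD40, 7.64 ± 3.83% in B2m-null isotype and 27.2 ± 6.04% in B2m-null CD40 (SD over 5, 2, 5 and 4 mice). The unthinned shares were 36.5, 36.9, 13.4 and 45.8%, at median depths of 3882, 2555, 4239 and 5233 UMIs. Free RNA or doublets within a mouse can give such UMIs in cells that do not express a gene, and their parts were not tested. In CD8 T cells, which should lack Cxcl9, the thinned shares were 1.95, 2.25, 0.821 and 1.79%, and the median depths 3396, 1284, 2586 and 2308 UMIs. The monocyte and macrophage shares were thus well above this background in every group.

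The Cxcl9 share was 15.3 percentage points lower in B2m-null isotype than in control isotype (exact permutation p = 0.00794, adjusted over 50 such tests 0.0496). It was 19.5 points higher in B2m-null CD40 than in B2m-null isotype (exact permutation p = 0.0159, adjusted 0.0567), where 4 against 5 mice cannot give a smaller p. For Cxcl10 the thinned shares were 24.7 ± 6.05, 15.1 ± 3.42, 9.94 ± 2.75 and 21.8 ± 8.34% in the same order of groups, against 4.08, 2.58, 2.04 and 4.17% in CD8 T cells. The unthinned Cxcl10 shares were 40.4, 25.1, 20.5 and 41.1%. Its share was 14.7 points lower in B2m-null isotype than in control isotype (exact permutation p = 0.00794, adjusted 0.0496) and 11.9 points higher in B2m-null CD40 than in B2m-null isotype (exact permutation p = 0.0159, adjusted 0.0567). All of these tests are two-sided. The 2 adjusted p of 0.0496 passed narrowly: without thinning they were 0.0516, and over the 3 other depths and each of the 16 mice left out they ran from 0.0516 to 0.206.

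Both ligands were seen together at 1000 UMIs in 8.20 ± 2.86% of monocytes and macrophages in control isotype, 6.75 ± 3.71% in control CD40, 1.81 ± 1.26% in B2m-null isotype and 8.71 ± 4.35% in B2m-null CD40. In control isotype Cxcl10 was seen in 36.1 ± 10.3% of Cxcl9-positive cells and in 21.4 ± 4.79% of Cxcl9-negative cells. In B2m-null isotype the same shares were 20.9 ± 7.96% and 8.85 ± 2.21%. A cell with no UMI of a gene at this depth may still hold its transcript.

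Split into classes, monocytes carried the higher Cxcl10 level. In monocytes Cxcl10 was 2255 ± 697 CPM in control isotype (n = 5), 1047 ± 34.2 in control CD40 (n = 2), 840 ± 222 in B2m-null isotype (n = 5) and 1000.4 ± 118 in B2m-null CD40 (n = 4). Here Cxcl10 fell with anti-CD40 in control tumours by 1.04 ± 0.25 (log2, edgeR adjusted p = 0.00481), where 14.7% of 8136 genes passed. In B2m-null tumours the difference was 0.43 ± 0.20 (edgeR adjusted p = 0.0919, 34.5% of genes passed), and the 2 responses differed by 1.47 ± 0.32 (edgeR adjusted p = 0.00617, 6.01% passed). The fall in control tumours did not pass without control CD40 mouse 1 or mouse 2 (edgeR adjusted p = 0.0509 and 0.0934), without lane 1 of control isotype (-0.56, edgeR adjusted p = 0.203) or with clusters at resolution 2 (-0.53, edgeR adjusted p = 0.218). Without lane 1 of control isotype the responses differed by 1.00 (edgeR adjusted p = 0.0804). In macrophages Cxcl10 was 623 ± 176, 315 ± 106, 197 ± 68.4 and 585 ± 289 CPM in the same groups. It rose with anti-CD40 in B2m-null tumours by 1.75 ± 0.32 (log2, edgeR adjusted p = 0.000771, 32.8% of 12048 genes passed).

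Cxcl9 in monocytes as a class rose with anti-CD40 in both genotypes. No rise was called within the single monocyte clusters that could be tested, whose values are given below. The cluster with most monocytes of B2m-null CD40 was not tested in B2m-null tumours, where too few isotype mice had enough of its cells. In the class the Cxcl9 level was 797 ± 241 CPM with isotype and 1627 ± 816 CPM with anti-CD40 in control tumours. In B2m-null tumours it was 295 ± 200 CPM with isotype and 1157 ± 95.2 CPM with anti-CD40. The log2 change was 1.12 ± 0.32 in control tumours (edgeR adjusted p = 0.0169) and 1.89 ± 0.29 in B2m-null tumours (edgeR adjusted p = 1.6e-05). The difference between these changes was 0.77 (edgeR adjusted p = 0.338). The change in control tumours was 0.43 without control CD40 mouse 2 (edgeR adjusted p = 0.649), 0.90 without lane 2 of control isotype (edgeR adjusted p = 0.0877) and 0.076 by marker gates (edgeR adjusted p = 0.909). In macrophages Cxcl9 was 558 ± 88.4, 778 ± 446, 169 ± 103 and 585 ± 203 CPM in the 4 groups and rose with anti-CD40 in B2m-null tumours by 1.96 ± 0.40 (edgeR adjusted p = 0.00145). The difference in control tumours was 0.64 ± 0.47 (edgeR adjusted p = 0.355, 21.8% passed), and the 2 responses were not shown to differ (1.32, edgeR adjusted p = 0.163, 16.6% passed).

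Different clusters held most of these classes in different groups. Of the monocytes, 87.7% in control isotype and 97.0% in B2m-null isotype were in cluster 9 (led by Chil3, Ifitm6 and Vcan), against 39.0% in control CD40 and 19.6% in B2m-null CD40, where cluster 11 (Ly6i, Fpr2, Cfb and Nos2) held the rest. Of the macrophages, 51.1% in control CD40 were in cluster 4 (H2-M2, Gpnmb and Il18bp) against 5.87% in control isotype. Within single clusters, a comparison chosen after the data were seen, Cxcl10 in cluster 9 fell with anti-CD40 in control tumours by 2.36 ± 0.43 (log2, edgeR adjusted p = 0.000325, 8.46% of genes passed). In the other tested monocyte and macrophage clusters of control tumours Cxcl10 did not pass. In cluster 11 it differed by -0.42 ± 0.18 (edgeR adjusted p = 0.247, 2.32% passed). Cxcl9 in cluster 9 also fell in control tumours, by 1.5 ± 0.42 (edgeR adjusted p = 0.0193), the opposite direction to the class. In B2m-null tumours Cxcl9 in cluster 9 differed by 0.19 ± 0.32 (edgeR adjusted p = 0.747, 12.4% passed). In cluster 11 Cxcl9 differed by 0.18 ± 0.27 in control tumours (edgeR adjusted p = 0.827, 2.32% passed), and only 1 B2m-null isotype mouse had enough of these cells. In cluster 2 (Lyve1, Cd163 and Folr2) Cxcl9 rose with anti-CD40 in B2m-null tumours by 2.90 ± 0.37 (edgeR adjusted p = 1.68e-05, 17.9% of genes passed), the largest of 8 such cluster values. It also rose in clusters 0, 5 and 12 (by 1.54, 2.14 and 1.74, where 29.8, 17.6 and 6.61% of genes passed). In clusters 1, 4, 9 and 19 the values of 0.47, 1.35, 0.19 and 0.83 did not pass (where 16.3, 3.04, 12.4 and 4.21% of genes did). In control tumours Cxcl9 rose in cluster 19 by 1.74 ± 0.37 (edgeR adjusted p = 0.00427, 4.27% passed). In the other tested clusters of control tumours it passed only in cluster 9, where it fell. Of the 9 clusters, the ones with the highest Cxcl10 level in control isotype were cluster 12, macrophages led by interferon-induced genes (Rsad2, Ifit2 and Ifit1), at 2455 ± 547 CPM, and cluster 9 at 2340 ± 842 CPM (SD, n = 5).

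Conventional dendritic cells, which present antigen to T cells, also had their lowest Cxcl9 in B2m-null isotype. With isotype, Cxcl9 was 386, 398, 613, 311 and 367 CPM in control tumours and 124, 103, 122, 251 and 84.9 CPM in B2m-null tumours. With anti-CD40 it was 461 and 432 CPM in control tumours and 461, 565, 686 and 728 CPM in B2m-null tumours, from only 47 to 98 cells per mouse. The B2m-null isotype mice again lay below all others. Macrophage markers, 5 of 5 with counts, were counted in these dendritic cells too. They summed to 949 to 2120 CPM in control isotype and 146 to 1206 CPM in control CD40. In B2m-null tumours the sums were 909 to 3580 CPM with isotype and 273 to 1160 CPM with anti-CD40. Their part in the ligand results of these cells was not tested.

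In these dendritic cells Cxcl9 fell by 1.56 ± 0.24 in B2m-null against control tumours under isotype (log2, edgeR adjusted p = 0.00122), where 2.07% of 8633 genes passed. It rose 4.67-fold with anti-CD40 in B2m-null tumours, a log2 change of 2.22 ± 0.26 (edgeR adjusted p = 3.24e-05, 10.2% of genes passed). In control tumours the difference was 0.14 ± 0.31 (edgeR adjusted p = 0.909, 2.28% passed), and the 2 responses differed by 2.08 ± 0.42 (edgeR adjusted p = 0.00952, 2.59% passed). Under anti-CD40 the genotypes differed by 0.52 ± 0.34 (edgeR adjusted p = 0.54, 0.591% passed). The call of a difference between the responses was lost without either control CD40 mouse (edgeR adjusted p = 0.0671 and 0.0646), without lane 1 of control isotype (0.0786) or of B2m-null isotype (0.0667), and without lane 2 of B2m-null CD40 (0.0596). The genotype difference under isotype lost its call without lane 1 of control isotype (-1.28, edgeR adjusted p = 0.134) or of B2m-null isotype (-1.28, edgeR adjusted p = 0.0631).

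Cxcl10 in conventional dendritic cells was 358 ± 161 CPM in control isotype, 198 ± 102 in control CD40, 140.5 ± 54 in B2m-null isotype and 399 ± 227 in B2m-null CD40. It fell by 1.40 ± 0.36 in B2m-null against control tumours under isotype (log2, edgeR adjusted p = 0.0424). With anti-CD40 in B2m-null tumours it rose by 1.57 ± 0.40 (edgeR adjusted p = 0.0183), though the mice of these groups overlapped and the lane means of B2m-null CD40 were 579 and 219 CPM. Both Cxcl10 calls were lost under several ways of leaving out a library. The difference between the 2 responses was 2.30 ± 0.67 (edgeR adjusted p = 0.0623).

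The dendritic cell types were alike in direction for Cxcl9. In cDC2, the type that mainly primes CD4 T cells, Cxcl9 was 567 ± 232 CPM in control isotype (n = 5) and 218 ± 109 CPM in B2m-null isotype (n = 5), 2.8-fold lower (edgeR adjusted p = 0.00119, 2.88% of 6015 genes passed). In mature dendritic cells, which carry CCR7 and move to lymph nodes, the same comparison gave 377 ± 156 against 94.3 ± 60.6 CPM, a fall of 1.85 ± 0.32 (edgeR adjusted p = 0.0148, 0.315% of 9214 genes passed). Without lane 1 of control isotype neither passed (-1.14 and -1.51, edgeR adjusted p = 0.0802 and 0.562), nor did the mature cells without lane 1 of B2m-null isotype (-1.67, edgeR adjusted p = 0.0971). In cDC1, the cross-presenting type, Cxcl9 was 321 ± 110 against 132 ± 111 CPM and the difference of -1.12 ± 0.33 did not pass (edgeR adjusted p = 0.0977, 1.69% of 6049 genes passed).

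Fibroblasts carried the highest mean Cxcl9 level in control isotype, control CD40 and B2m-null CD40 among the classes with at least 20 cells in a mouse, a limit that endothelial cells met only in control CD40. Fibroblasts held 4726, 1266 and 1844 CPM in the 3 control isotype mice with at least 20 of them, 6971 and 7135 CPM in control CD40, and 3765, 5591 and 2806 CPM in 3 mice of B2m-null CD40. No mouse of B2m-null isotype had 20 fibroblasts: its 31 assigned cells, pooled, held 222 Cxcl9 counts or 601 CPM, and 85.0% of the fibroblasts of its lane 1 had no mouse. The control CD40 mice were above all 3 control isotype mice, but the difference did not pass (1.5 ± 0.44 on the log2 scale, edgeR adjusted p = 0.169, where 1.03% of 7273 genes passed). Cxcl10 in fibroblasts was 658 ± 677, 1325 ± 21.9 and 1034 ± 240 CPM in control isotype, control CD40 and B2m-null CD40. Endothelial cells held 4201 ± 1389.9 CPM of Cxcl9 in control CD40 (n = 2). In the other groups they were too few per mouse and, pooled, stood at 2988 CPM in control isotype (52 cells), 122 CPM in B2m-null isotype (39 cells) and 4188 CPM in B2m-null CD40 (31 cells). Since the suspension was enriched for CD45, these stromal cells are those that came through the enrichment, and their shares are not those of the tumour.

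**Figure D2:**
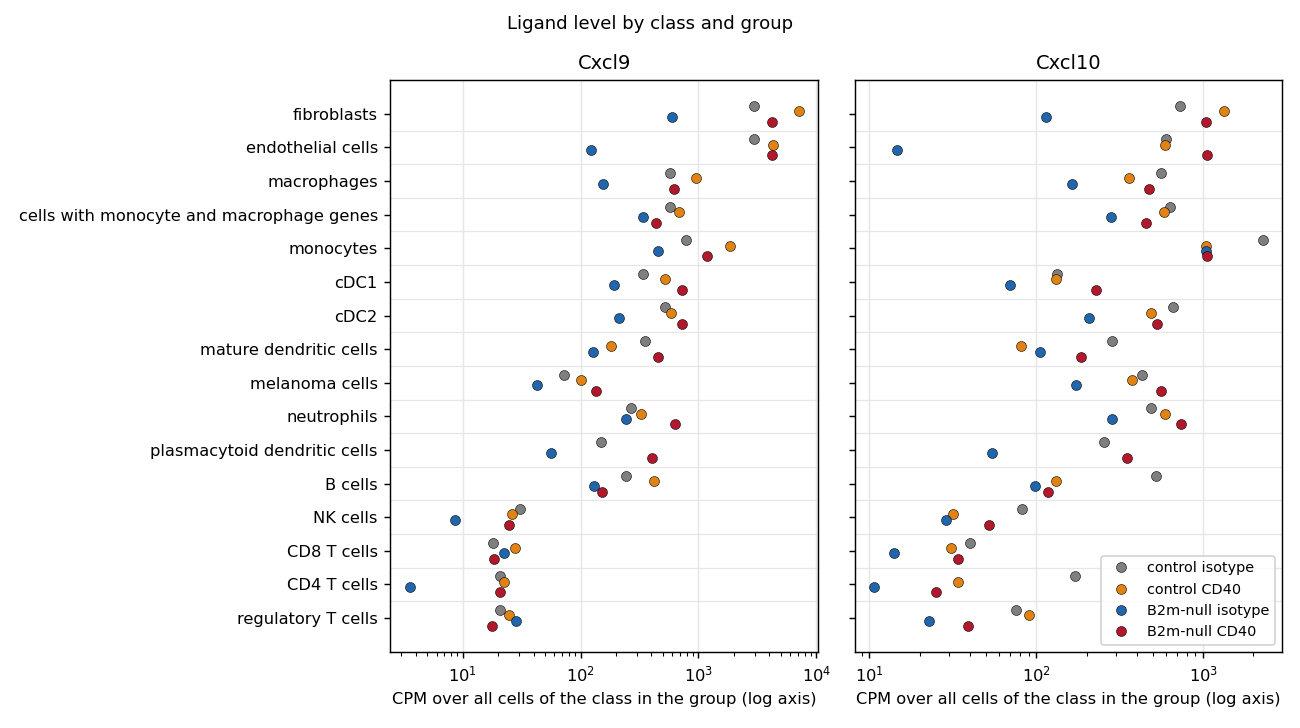
Cxcl9 (left) and Cxcl10 (right) by cell class, in CPM over all assigned cells of the class in a group, on a log axis; colours are the 4 groups. Fibroblasts stand high for Cxcl9 and endothelial cells do so outside B2m-null isotype, where they are at 122 CPM, monocytes of control isotype stand highest for Cxcl10 at 2286 CPM, and T and NK cells stand low for both.

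In control isotype the order of mean Cxcl9 levels ran from fibroblasts (2612 ± 1853 CPM, n = 3) to monocytes (797 ± 241), cells with both monocyte and macrophage genes (580.0 ± 145), cDC2 (567 ± 232), macrophages (558 ± 88.4), mature dendritic cells (377 ± 156) and cDC1 (321 ± 110). B cells (247 ± 198, n = 4), neutrophils (237 ± 38.4, n = 3), plasmacytoid dendritic cells (166 ± 175) and melanoma cells (78.2 ± 81.3) followed. NK, regulatory T, CD4 T and CD8 T cells came last at 28.3 ± 9.77, 20.2 ± 12.3, 18.3 ± 21.4 and 18.2 ± 6.71 CPM. Only the step from fibroblasts to monocytes separated all mice, and every other pair of neighbours overlapped.

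For Cxcl10 in control isotype, monocytes (2255 ± 697 CPM) were above cDC2 (705 ± 315) in every mouse. Fibroblasts (658 ± 677), cells with both monocyte and macrophage genes (656 ± 214), macrophages (623 ± 176), neutrophils (549 ± 556), melanoma cells (465 ± 157) and B cells (449 ± 541) followed, with ranges over mice that overlapped between neighbours. Mature (304 ± 140) and plasmacytoid dendritic cells (295 ± 374) were next, then CD4 T cells (176 ± 164) and cDC1 (127 ± 81.3). NK, regulatory T and CD8 T cells held 75.4 ± 37.1, 73.1 ± 45.6 and 41.2 ± 28.7 CPM.

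Counted over all cells of a mouse, the ligand level repeated the pattern of the myeloid cells. Cxcl9 was 499 ± 106 CPM in control isotype, 747 ± 221 in control CD40, 170.0 ± 91.9 in B2m-null isotype and 642 ± 135 in B2m-null CD40. It was 329 CPM lower in B2m-null than in control tumours under isotype (exact permutation p = 0.00794, adjusted over 12 tests 0.0381). It was 472 CPM higher with anti-CD40 in B2m-null tumours (exact permutation p = 0.0159, adjusted 0.0381). Cxcl10 over all cells was 573 ± 174, 306 ± 43.5, 201 ± 63.8 and 508 ± 231 CPM, with differences of -372 CPM (exact permutation p = 0.00794, adjusted 0.0381) and 307 CPM (exact permutation p = 0.0159, adjusted 0.0381) in those 2 comparisons. In control tumours anti-CD40 gave differences of 247 CPM for Cxcl9 and -267 CPM for Cxcl10 (exact permutation p = 0.190 for each, where 2 against 5 mice cannot go below 0.0952). The Cxcl9 difference was 90.9 CPM without control CD40 mouse 2 and 404 CPM without mouse 1, and 101 CPM (exact permutation p = 0.571) over haematopoietic and unnamed cells alone.

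Monocytes and macrophages held the largest mean share of both transcripts in each group, though in 1 of the 2 control CD40 mice fibroblasts and endothelial cells held 51.3% of Cxcl9 counts and monocytes and macrophages 37.9%. They made up 58.6, 43.1, 65.8 and 54.5% of cells in the 4 groups, in the order used above. They held 68.3 ± 11.1, 49.7 ± 16.6, 73.5 ± 14 and 67.1 ± 15% of Cxcl9 counts, and 75.0 ± 7.02, 55.8 ± 7.69, 78.0 ± 8.49 and 79.5 ± 6.73% of Cxcl10 counts. Fibroblasts and endothelial cells together were only 0.824, 1.17, 0.722 and 1.33% of cells but held 11 ± 9.78, 35.8 ± 21.9, 1.42 ± 1.30 and 18.8 ± 15% of Cxcl9 counts. Conventional and plasmacytoid dendritic cells held 10.4 ± 5.61% and 14.4 ± 11% of Cxcl9 counts with isotype in control and B2m-null tumours. With anti-CD40 they held 0.647 ± 0.376% and 1.76 ± 0.616%, where they were also a smaller share of cells (0.888 and 1.82%, against 11.9 and 15% with isotype). All these shares are of cells assigned to a mouse. In lane 1 of B2m-null isotype 85.0% of fibroblasts, 79.0% of monocytes and 47.4% of macrophages had no mouse, so the shares of that group may be skewed.

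**Figure D3:**
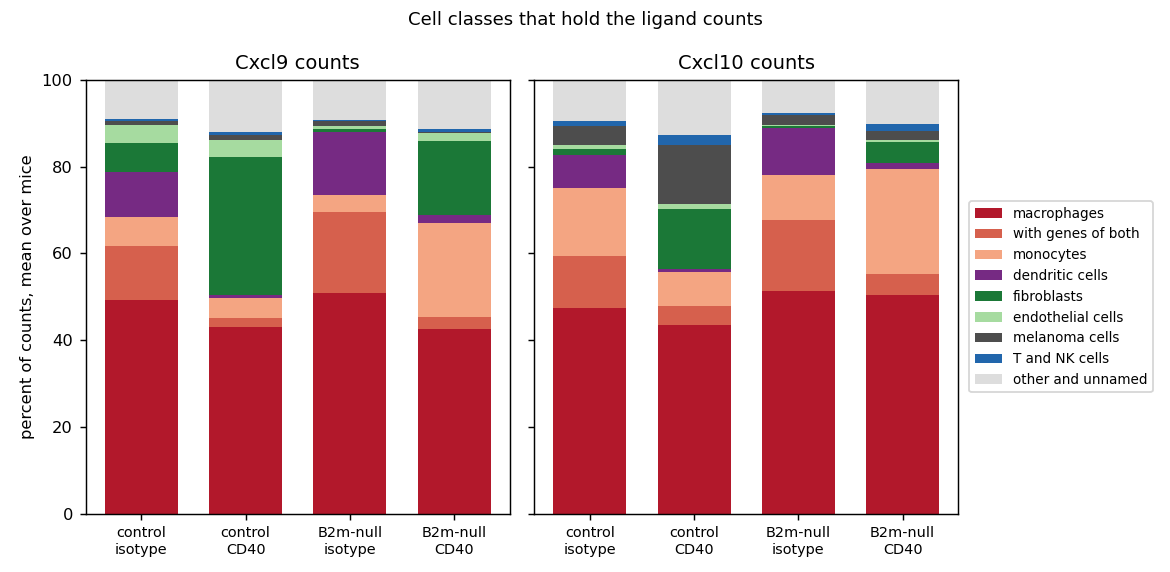
Percent of Cxcl9 counts (left) and Cxcl10 counts (right) that each cell class held, as the mean over mice, stacked to 100 for the 4 groups. Monocytes and macrophages (red shades) hold the largest part in each group, the fibroblast part of Cxcl9 is widest in control CD40, and the dendritic cell part is thin in both CD40 groups.

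Of 15 genes listed as inducers or their signalling in monocytes and macrophages, 6 rose and 2 fell with anti-CD40 in B2m-null tumours, with a median log2 change of 0.20 against -0.02 over all genes tested, of which 17.6% were called higher. Irf1, a transcription factor that acts on the ligand genes, rose by 1.15 ± 0.29 (edgeR adjusted p = 0.00571). Irf8 rose by 0.52 ± 0.11 and Rela, an NF-kB subunit, by 0.50 ± 0.10 (edgeR adjusted p = 0.00199 and 0.00119). Ifng, which encodes interferon gamma and is mainly a T and NK cell gene, was counted higher in these cells by 2.41 ± 0.43 (edgeR adjusted p = 0.000589), beside the T cell markers given above. In control tumours 1 inducer rose, Ifng by 2.04 ± 0.40 (edgeR adjusted p = 0.00224), and 2 fell: Stat2 by 0.67 ± 0.23 (edgeR adjusted p = 0.0468) and Ifnar1, a type I interferon receptor chain, by 0.60 ± 0.13 (edgeR adjusted p = 0.00461). These are 3 of 15, where 21.8% of all genes passed.

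Under isotype 4 of the 15 inducers fell in B2m-null against control tumours and none rose, where 4.84% of all genes were called lower: Irf1 by 1.40 ± 0.28, Tnf by 1.00 ± 0.19, Irf8 by 0.68 ± 0.11 and Stat2 by 0.62 ± 0.18 (edgeR adjusted p = 0.00818, 0.00716, 0.00262 and 0.0384). The response to anti-CD40 differed between genotypes for Stat2 (0.87 ± 0.30), Ifnar1 (0.64 ± 0.17), Ifnar2 (0.57 ± 0.15) and Jak1 (-0.33 ± 0.11), with edgeR adjusted p of 0.0493, 0.0156, 0.0140 and 0.0384. These are 4 of 15, where 18.6% of all genes passed. For the first 3 of these the response was higher in B2m-null tumours, as it was for Cxcl10.

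Genes that interferon gamma is known to induce together with the ligands nearly all rose with anti-CD40 in B2m-null tumours. Of 12 tested in monocytes and macrophages (of 13 listed), 11 rose, where 17.6% of all genes did, with a median log2 change of 1.38. The largest changes were in Serping1 (2.30 ± 0.54), Gbp4 (1.85 ± 0.39), Igtp (1.70 ± 0.27), Iigp1 (1.68 ± 0.30) and Socs1 (1.66 ± 0.37), with edgeR adjusted p of 0.00353, 0.00182, 0.000258, 0.000561 and 0.00243. Gbp4, Igtp and Iigp1 encode interferon-induced GTPases, and Socs1 a brake on the same signalling. In control tumours 1 of the 12 rose, Cd274, which encodes PD-L1 (0.92 ± 0.31, edgeR adjusted p = 0.0407), a share no higher than the 21.8% of all genes that passed. Under isotype 10 of the 12 were lower in B2m-null tumours and none higher, with a median of -1.29 against 0.00 over all genes, of which 4.84% were called lower: Gbp4 fell by 1.77 ± 0.38, Socs1 by 1.66 ± 0.35 and Gbp2 by 1.39 ± 0.29 (edgeR adjusted p = 0.0111, 0.0112 and 0.0100).

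Conventional dendritic cells showed the same lists with fewer calls. Of 11 induced genes tested there, 5 rose with anti-CD40 in B2m-null tumours, among them Iigp1 (2.21 ± 0.32, edgeR adjusted p = 0.000357) and Gbp2 (1.41 ± 0.24, edgeR adjusted p = 0.00145), and none passed in control tumours. Over all genes tested 5.57% were called higher in the B2m-null comparison. Under isotype 6 of the 11 fell in B2m-null tumours, among them Iigp1 by 1.52 ± 0.27 (edgeR adjusted p = 0.00386), where 1.18% of all genes were called lower. Of the 15 inducers, 3 rose with anti-CD40 in B2m-null tumours and none fell, among them Irf1 (0.98 ± 0.26) and Irf8 (0.58 ± 0.12), with edgeR adjusted p of 0.0213 and 0.0046. Of 4 genes that cut or take up the ligands, Dpp4 and Ackr3 were tested in monocytes and macrophages and neither passed in any comparison.

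Likeness to each ligand was measured over the 16 mice. For Cxcl9 in monocytes and macrophages, Pearson's r of log2(CPM + 1) was 0.946 with Gbp8, 0.930 with Socs1, 0.926 with Cd52, 0.910 with Bcl2a1a and 0.905 with Scand1, the 5 highest of 5698 genes. For Cxcl10 it was 0.959 with Nlrc5, 0.942 with Zbp1, 0.933 with Tgm2, 0.930 with Magohb and 0.921 with Twf2. The mice share lanes and groups, so these values are descriptions.

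The receptor was counted in lymphocytes and in some dendritic cells. In control isotype the mean Cxcr3 level was 102 ± 29.6 CPM in CD4 T cells (n = 4), 59.8 ± 16.1 in regulatory T cells, 48.5 ± 8.07 in cDC1, 42.4 ± 12.7 in NK cells and 34.4 ± 11.5 in plasmacytoid dendritic cells. B cells (27.9 ± 20.8, n = 4) and CD8 T cells (23.7 ± 11.2) followed. Mature dendritic cells held 7.61 ± 2.48 CPM and cDC2 5.18 ± 2.31, and the mean was 3.84 in melanoma cells, 3.29 in neutrophils and 2.58 in fibroblasts. Macrophages held 1.67 ± 0.552 CPM, cells with both monocyte and macrophage genes 1.25 ± 1.08 and monocytes 1.02 ± 1.73. Neighbours in this order overlapped over mice. With anti-CD40 the highest means were those of regulatory T and CD8 T cells, at 141 ± 27.5 and 113 ± 26.0 CPM in control tumours and 151 ± 58.7 and 149 ± 59.3 CPM in B2m-null tumours. The mean of CD4 T cells was 108 ± 37.0 and 133 ± 77.6 CPM. Mice of these classes overlapped, and their order was not tested.

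CD8 T cells, the cells that kill through MHC class I, had more Cxcr3 with anti-CD40 in both genotypes. With isotype Cxcr3 was 24.4, 38.4, 21, 7.35 and 27.1 CPM in the 5 mice with control tumours. It was 12.3, 34.9, 64.7 and 47.5 CPM in 4 mice with B2m-null tumours, where a further mouse had only 5 CD8 T cells and was not used. With anti-CD40 it was 94.5 and 131 CPM in control tumours and 122, 84.4, 221 and 170.1 CPM in B2m-null tumours. Every treated mouse was above every isotype mouse. Markers of other cell types moved in these cells too. The 5 melanoma markers summed to 7.73 to 16.8 CPM in control isotype, 28.5 to 35.6 in control CD40, 15.8 to 49.3 in B2m-null isotype and 4.06 to 14.4 in B2m-null CD40, so they were higher with anti-CD40 in 1 genotype and lower in the other. The 5 monocyte markers, of which T cells also express Ly6c2 and Plac8, summed to 901 to 1719, 1129 to 1560, 713 to 1099 and 1411 to 2160 CPM. Their part in the result was not tested.

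The log2 change of Cxcr3 in CD8 T cells was 2.39 ± 0.35 in control tumours (edgeR adjusted p = 3.44e-05, 2 against 5 mice) and 1.73 ± 0.37 in B2m-null tumours (edgeR adjusted p = 0.0054, 4 against 4 mice). In these comparisons 40.9 and 11.9% of 9655 genes passed. The 2 responses differed by -0.66 ± 0.53 (edgeR adjusted p = 0.478, 10.8% passed). B2m-null and control tumours differed by 1.17 ± 0.42 under isotype (edgeR adjusted p = 0.248, 0.394% passed) and 0.51 ± 0.33 under anti-CD40 (edgeR adjusted p = 0.329, 13.4% passed). With 1 mouse or lane left out these differences ran from -0.15 to 1.60 and from -0.22 to 0.88, so their signs were not stable. The rise in B2m-null tumours did not pass without lane 1 of B2m-null isotype (1.43, edgeR adjusted p = 0.0595) or without lane 2 of B2m-null CD40 (0.93, edgeR adjusted p = 0.135). Nor did it pass by limma-voom with lane as a correlated block (1.61, limma adjusted p = 0.0724). Lane moved with the level here too, with means of 103 CPM in lane 1 and 195 CPM in lane 2 of B2m-null CD40.

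At 1000 UMIs, Cxcr3 was seen in 2.53 ± 1.58% of CD8 T cells in control isotype, 10.6 ± 2.99% in control CD40, 6.07 ± 4.53% in B2m-null isotype and 14.4 ± 4.42% in B2m-null CD40. The unthinned shares were 8.49, 17.7, 13.7 and 31.3%, and 224, 2875, 60 and 299 shallower cells were left out. In macrophages, which should lack Cxcr3, the thinned shares were 0.304, 0.0744, 0.451 and 0.247%, at median depths of 5091.5, 2640, 4765.5 and 5573.5 UMIs before thinning. The difference with anti-CD40 was 8.05 points in control tumours (exact permutation p = 0.0952, adjusted 0.238, the smallest p that 2 against 5 mice allow). In B2m-null tumours it was 8.30 points (exact permutation p = 0.0571, adjusted 0.179). Neither share passed after adjustment.

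**Figure D4:**
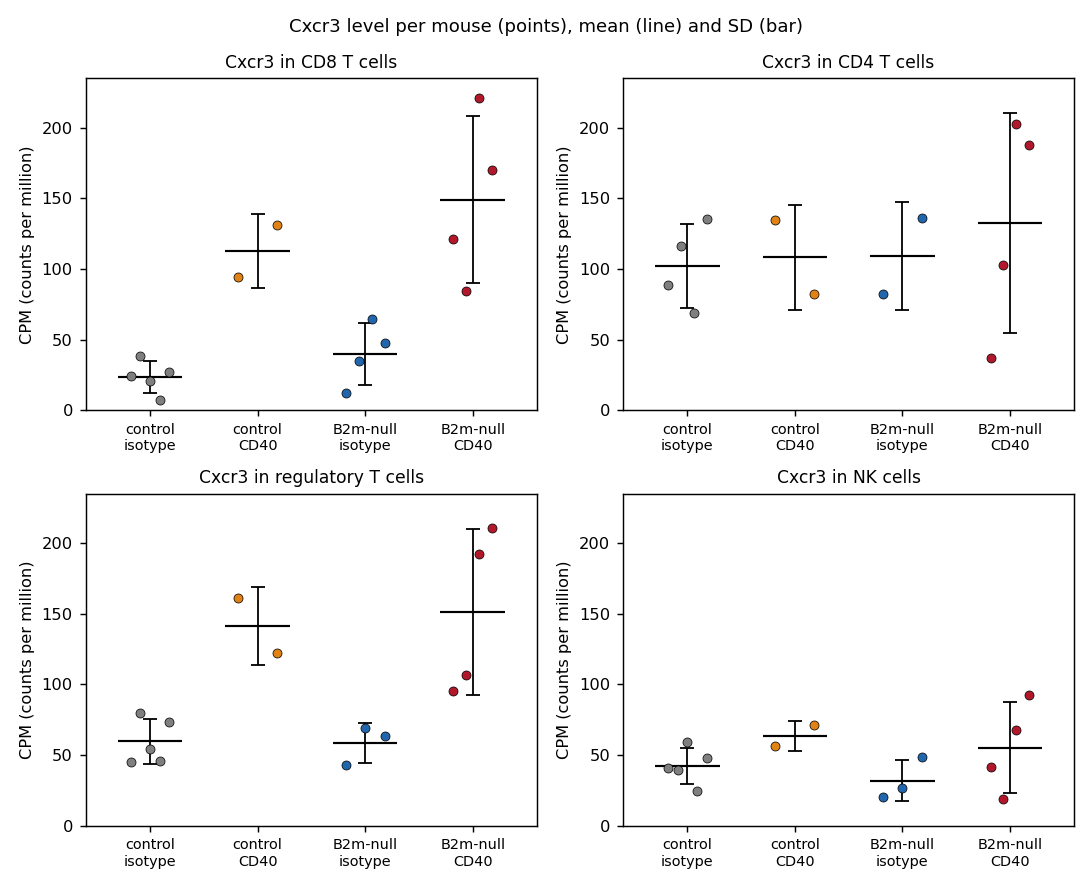
Cxcr3 in CPM in CD8 T, CD4 T, regulatory T and NK cells for the 4 groups; points are mice with at least 20 cells of the type, lines are means and bars SDs. In CD8 T and regulatory T cells all CD40 mice lie above all isotype mice, and in CD4 T and NK cells the groups overlap.

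Different clusters held most CD8 T cells in different groups. Cluster 8, led by Gzmf, Ifng and Pdcd1, held 71.4 and 62.0% of CD8 T cells with isotype in control and B2m-null tumours, against 18.8 and 36.3% with anti-CD40. Cluster 3 (Ccl5, Gzmk and Tox) held 54.7% in control CD40 and cluster 6 (Gzmk, Ccl5 and Cd8b1) 38.8% in B2m-null CD40. The Cxcr3 level differed between them: in control isotype it was 128 ± 59.3 CPM in cluster 3 (n = 5), 101 ± 3.29 in cluster 6 (n = 2) and 14.4 ± 6.08 in cluster 8 (n = 5). Cluster 3 is shallow, at a median of 902 UMIs, against 3655 in cluster 8.

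Within single clusters, compared after the data were seen, the response to anti-CD40 passed in cluster 8. There Cxcr3 was 14.4 ± 6.08, 56.2 ± 16.8, 32.4 ± 17.7 and 107 ± 39.0 CPM in the 4 groups. It rose by 2.00 ± 0.32 in control tumours (log2, edgeR adjusted p = 8.48e-05, 19.4% of genes passed) and by 1.45 ± 0.32 in B2m-null tumours (edgeR adjusted p = 0.00464, 8.8% passed). In cluster 3 the changes were 0.15 ± 0.28 (edgeR adjusted p = 0.808, 8.4% passed) and 0.63 ± 0.39 (edgeR adjusted p = 0.394, 1.29% passed), and in cluster 6 of control tumours the change was 0.67 ± 0.44 (edgeR adjusted p = 0.673, 0.334% passed). The difference between clusters was not tested. Under isotype, B2m-null tumours were higher than control tumours in cluster 8 (1.53 ± 0.38, edgeR adjusted p = 0.0414, 1.21% passed). Under anti-CD40, B2m-null tumours were higher than control tumours in cluster 3 (0.57 ± 0.18, edgeR adjusted p = 0.0191, 22.4% passed), cluster 6 (0.58 ± 0.17, edgeR adjusted p = 0.0218, 17.4% passed) and cluster 8 (0.97 ± 0.27, edgeR adjusted p = 0.018, 11.9% passed). Both the level within cluster 8 and the clusters that held most cells therefore differed between the groups compared over all CD8 T cells. At resolution 2, the CD8 T clusters included 2204 cells led by Gzmf and Nrgn, with Cxcr3 at 21.5 CPM. Another held 1985 cells led by Hmgb2 and Gzmk, with Cxcr3 at 103 CPM. Whether the mix of such cells within cluster 8 differed between groups was not tested.

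**Figure D5:**
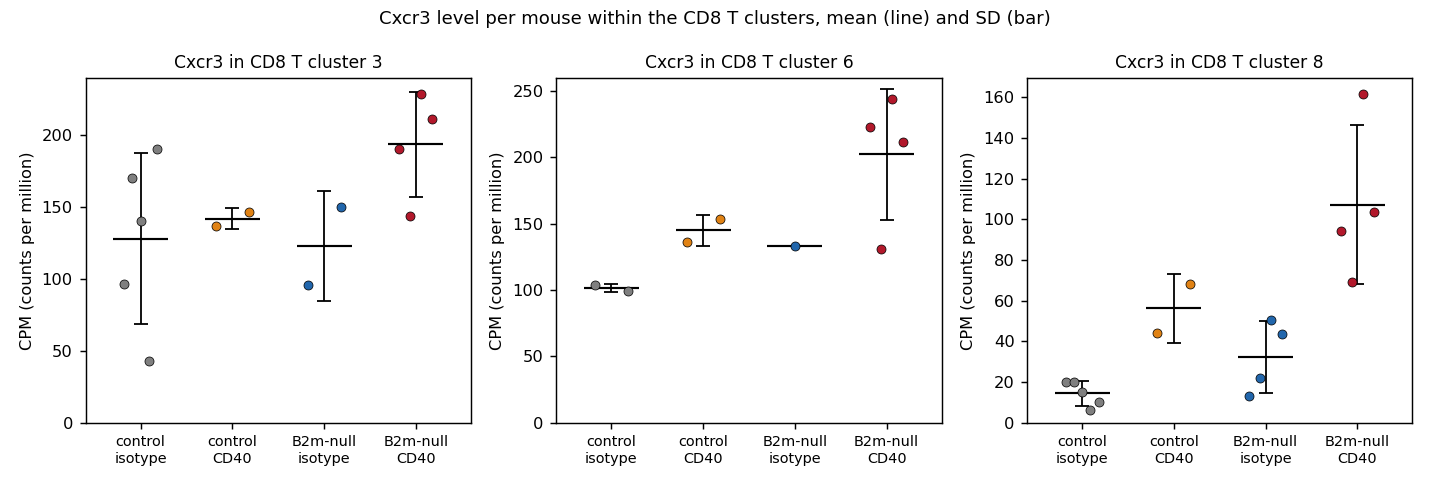
Cxcr3 in CPM within CD8 T clusters 3, 6 and 8 for the 4 groups; points are mice with at least 20 cells of the cluster, lines are means and bars SDs, and each panel has its own axis from 0. Cluster 8 runs from 14.4 CPM in control isotype to 107 CPM in B2m-null CD40, while in cluster 3 the control groups overlap.

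Regulatory T cells, which restrain other T cells, also rose in Cxcr3 with anti-CD40 in both genotypes. The level was 45.2, 80.1, 54.1, 45.9 and 73.5 CPM in control isotype and 161 and 122 CPM in control CD40. It was 42.7, 69.0 and 63.8 CPM in 3 mice of B2m-null isotype and 95.6, 106, 192 and 211 CPM in B2m-null CD40. The log2 change was 1.24 ± 0.28 in control tumours (edgeR adjusted p = 0.00211, 17.1% of 5481 genes passed) and 1.41 ± 0.27 in B2m-null tumours (edgeR adjusted p = 0.00053, 11.3% passed). The responses differed by 0.17 ± 0.39 (edgeR adjusted p = 0.894, 2.61% passed). With each cell thinned to 1000 UMIs neither rise passed (0.62 and 0.66, edgeR adjusted p = 0.389 and 0.438). The rise in B2m-null tumours did not pass without lane 2 of B2m-null isotype (2.12, edgeR adjusted p = 0.0527) or of B2m-null CD40 (0.68, edgeR adjusted p = 0.461), and by marker gates the rise in control tumours was 0.75 (edgeR adjusted p = 0.261). CD8 T cell markers, of which regulatory T cells also express Cd3e, Cd3g and Trac, summed to 1535 to 1891 CPM in these cells in control isotype and 2486 to 2603 in control CD40. In B2m-null tumours the sums were 1142 to 1601 CPM with isotype and 2217 to 3208 CPM with anti-CD40. Their part in the result was not tested.

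In CD4 T cells and NK cells edgeR's test over mice called no change of Cxcr3. In CD4 T cells the level was 102 ± 29.6, 108 ± 37.0, 109 ± 38.3 and 133 ± 77.6 CPM in the 4 groups (n = 4, 2, 2 and 4), with log2 differences with anti-CD40 of 0.09 ± 0.40 in control tumours (edgeR adjusted p = 0.944, 6.69% of 3110 genes passed) and 1.06 ± 0.42 in B2m-null tumours (edgeR adjusted p = 0.102, 11.7% passed). In NK cells, innate killers that need no MHC class I to act, it was 42.4 ± 12.7, 63.8 ± 10.6, 31.9 ± 14.7 and 55.2 ± 32.1 CPM (n = 5, 2, 3 and 4). The NK differences were 0.72 ± 0.32 (edgeR adjusted p = 0.207, 5.62% of 6339 genes passed) and 1.03 ± 0.37 (edgeR adjusted p = 0.082, 9.15% passed). Between genotypes CD4 T cells differed by -0.16 ± 0.55 under isotype (edgeR adjusted p = 1, 0.0643% passed), opposite in sign to the means above, where the 2 B2m-null isotype mice held 82.1 CPM over 114 cells and 136 CPM over 21 cells, and 0.81 ± 0.26 under anti-CD40 (edgeR adjusted p = 0.0514, 8.65% passed). NK cells differed by -0.39 ± 0.38 (edgeR adjusted p = 0.96, 0.11% passed) and -0.07 ± 0.32 (edgeR adjusted p = 0.935, 4.12% passed). The 2 responses to anti-CD40 differed by 0.97 ± 0.60 in CD4 T cells (edgeR adjusted p = 0.514, 0.514% passed) and by 0.32 ± 0.49 in NK cells (edgeR adjusted p = 0.824, 1.51% passed). A p above the threshold does not show that these cells kept their level, and other settings made calls. Between genotypes under anti-CD40, limma-voom with a lane block called Cxcr3 higher in CD4 T cells of B2m-null tumours (0.86, limma adjusted p = 0.0329). In NK cells of the clusters at resolution 2 it rose with anti-CD40 by 1.42 in control tumours (edgeR adjusted p = 0.0197) and 1.64 in B2m-null tumours (edgeR adjusted p = 0.0238). Those NK cells came from clusters of 3239, 576 and 454 cells, with Cxcr3 at 39.6, 12.9 and 131 CPM. The cluster of 576 cells also held Cxcl9 at 524 CPM. The part of this mix of clusters in the rise was not tested. The cells named B cells are 1 cluster that also held genes of antibody-secreting plasma cells: Jchain and Mzb1 were among its 10 leading genes, and at resolution 2 it split into clusters of 941 cells led by Ms4a1 and 155 cells led by Jchain. In this cluster Cxcr3 rose with anti-CD40 in B2m-null tumours, from 10.2 ± 5.41 CPM (n = 2) to 76.1 ± 41.4 CPM (n = 4), a log2 change of 3.15 ± 0.66 (edgeR adjusted p = 0.0188, 1.81% of 5922 genes passed). The call was lost without either of the 2 B2m-null isotype mice (3.80 without mouse 4 and 2.67 without mouse 5, edgeR adjusted p = 0.0587 and 0.299) and without lane 2 of B2m-null CD40 (2.15, edgeR adjusted p = 0.0917).

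Summed over all cells, Cxcr3 was 10.5 ± 3.42 CPM in control isotype, 32.5 ± 0.627 in control CD40, 8.14 ± 3.78 in B2m-null isotype and 34.1 ± 20.9 in B2m-null CD40. The difference with anti-CD40 was 26.0 CPM in B2m-null tumours (exact permutation p = 0.0159, adjusted 0.0381) and 21.9 CPM in control tumours (exact permutation p = 0.0952, adjusted 0.190). The former ran from 17.6 to 32.0 CPM and no longer passed after adjustment without any 1 of the 9 mice it compares. With 1 mouse fewer even the smallest possible p could not pass after adjustment, so this loss follows from the number of mice. T and NK cells made up 15.8 ± 5.41, 41.0 ± 0.861, 7.76 ± 5.16 and 30.8 ± 14.5% of cells, and held 33.1 ± 8.30, 77.5 ± 3.44, 20.4 ± 14.8 and 71.9 ± 15.3% of Cxcr3 counts. These are named classes alone: unnamed clusters held a further 27.9 ± 3.88, 14.0 ± 4.34, 21.9 ± 2.15 and 16.9 ± 9.22%. Among them is cluster 14, of 2259 cells with Trdc, Tcrg-C4 and Tcf7 among its 10 leading genes, where Cxcr3 was 73.6 ± 12.0 CPM in control isotype (n = 5). With isotype, dendritic cells held 26.5 and 29.5% of Cxcr3 counts in control and B2m-null tumours. These shares too are of assigned cells, and in lane 1 of B2m-null isotype 75.7% of NK and 52.6% of CD8 T cells had no mouse.

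Among genes that regulate or carry the signal of the receptor in CD8 T cells, 3 of 9 rose in control tumours with anti-CD40: Runx3 (1.10 ± 0.15), Arrb2 (0.77 ± 0.17) and Tbx21, the T-box factor T-bet that acts on Cxcr3 (0.52 ± 0.18), with edgeR adjusted p of 2.16e-05, 0.00112 and 0.0249. In B2m-null tumours Rac2 (0.99 ± 0.16) and Gnai2 (0.45 ± 0.12) rose and Eomes fell by 1.05 ± 0.23 (edgeR adjusted p = 0.0005, 0.0173 and 0.00668). The median over the 9 genes was 0.33 in control tumours against -0.02 over all genes, and 0.09 against 0.03 in B2m-null tumours. Over all genes tested 19.9% were called higher in control tumours and 7.51% in B2m-null tumours. Runx3 and Eomes differed between the responses by -1.03 ± 0.22 and -1.60 ± 0.32 (edgeR adjusted p = 0.00547 and 0.00406).

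Most other homing receptors listed also rose in CD8 T cells of control tumours. Of 6 tested, 5 rose and 1 fell, where 40.9% of all genes passed and 19.9% were called higher. Among those that rose were S1pr1, the exit receptor (3.08 ± 0.31), Cxcr4 (1.96 ± 0.20), Ccr2 (1.16 ± 0.35) and Cxcr6, and Ccr7, the lymph node homing receptor, fell by 1.69 ± 0.32 (edgeR adjusted p = 9.42e-07, 1.35e-06, 0.0114, 0.0138 and 0.000378 in this order). In B2m-null tumours, where 7.51% of all genes were called higher, 2 of the 6 rose, among them S1pr1 (1.31 ± 0.38, edgeR adjusted p = 0.0276), and none fell. The responses of S1pr1 and Cxcr4 differed between genotypes, by -1.77 ± 0.52 and -1.58 ± 0.32 (edgeR adjusted p = 0.0314 and 0.00387). Of 5 tested in NK cells, 1 rose in control tumours, where 5.62% of all genes passed, and 1 rose and 1 fell in B2m-null tumours, where 9.15% passed. Cxcr6 was the one that rose, by 2.51 ± 0.30 and 1.75 ± 0.31 (edgeR adjusted p = 3.52e-06 and 0.000667), and Cxcr4 fell by 0.83 ± 0.20 (edgeR adjusted p = 0.00961).

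Over 15 mice, the level of Cxcr3 in CD8 T cells was most like that of Gzma (Pearson's r of log2(CPM + 1) = 0.947), Rasa3 (0.939), Gimap6 (0.934), Itgb7 (0.933) and Gimap4 (0.928), of 6059 genes compared. Gzma encodes a granzyme, and Itgb7 an integrin chain of homing lymphocytes. The mice share lanes, groups and the mix of clusters described above.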

How the data were processed

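Single-cell gene expression was measured in 8 droplet lanes with the 10x 3′ chemistry. The authors deposited raw UMI counts per gene and barcode, together with hashtag counts, made with Cell Ranger 3.0.0, bcl2fastq 2.20.0.422 and mm10 per the submitters' processing notes. Everything after these counts was computed here, with Python 3.11.15, scanpy 1.11.5, R 4.3.3, edgeR 4.0.16, limma 3.58.1 and DESeq2 1.42.0.

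Each barcode was assigned to a mouse from its hashtag counts (posterior of at least 0.9). The labels list 3 hashtags per pool, but 6 of 8 lanes held only 2, so mice are the hashtags found. In all, 10130 hashtag doublets were removed and 18689 barcodes had no assignment. A barcode was kept when it had 200 or more genes and no more than 10% of its counts from mitochondrial genes. Clustering used 2000 variable genes without the 3 members, 40 components, 20 neighbours and Leiden resolution 1, giving 30 clusters, named from markers. Doublets within a mouse were treated only in an alternative (Scrublet).

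Counts were summed per mouse and set of cells, for mice with at least 20 cells, and tested with edgeR's quasi-likelihood test in 1 fit over all 4 groups, with TMM scaling, edgeR's filter on low counts and Benjamini-Hochberg adjustment over all genes tested (threshold 0.05). Levels are counts per 1000000 UMIs of the set. SEs are the log2 change over the root of the F statistic. Shares and totals were compared with exact two-sided permutation tests over mice. Both kinds of test take mice as independent, though mice of a pool shared lanes and no lane held mice of different groups. Their p therefore do not cover the spread between lanes. On simulated data, 83.7 to 85.6% of genes changed by 1 on the log2 scale were recovered in monocytes and macrophages with anti-CD40 (12315 genes). In CD8 T cells the share was 69.8% in control tumours and 46.1% in B2m-null tumours. False calls were 2.84 to 5.59% of calls. The simulation gave all genes the same dispersion and the mice no lane effect. These shares therefore need not hold for genes that vary more or that moved with the lane, as Cxcl10 did.

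Named genes were the members in every set, at most 5 called genes per pathway list with the largest absolute log2 change, and the 5 genes most like each member. Some genes that met this rule are not reported here. Cxcr6 in CD8 T cells falls outside this rule and was named after its value was seen. The rule for members uses no measured value, but the members and lists were chosen with earlier results of these data known, so their counts are no independent support. Alternatives covered normalization, filters, depth, gates, doublets, lanes as units, a replicate block and leaving out mice and lanes.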

Additional observations from a re-analysis of the deposited data

Results flagged for a closer look

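Of 54 groups of 4 or 5 mice examined for a mouse far from the others, 4 held one, where chance gives about 1 group in 20. Cxcl9 in monocytes of B2m-null CD40 had a low mouse at 1016 CPM, with the next at 1183 CPM and the highest at 1216 CPM. Cxcl9 in conventional dendritic cells had a high mouse at 613 CPM in control isotype (next 398, lowest 311 CPM) and at 251 CPM in B2m-null isotype (next 124, lowest 84.9 CPM). Cxcl9 in cDC2 of control isotype had a high mouse at 964 CPM (next 563, lowest 401 CPM).

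The response to anti-CD40 differed between the genotypes, by edgeR's test of the difference itself, in 5 of the ligand results. These are not separate results: cDC2 are part of the conventional dendritic cells, and monocytes and macrophages are parts of their joint set. For Cxcl9 the response was larger in B2m-null tumours by 2.08 ± 0.42 in conventional dendritic cells (log2, edgeR adjusted p = 0.00952, 2.59% of genes passed) and by 1.96 ± 0.49 in cDC2 (edgeR adjusted p = 0.0297). For Cxcl10 it was larger by 2.5 ± 0.55 in monocytes and macrophages (edgeR adjusted p = 0.00733, 18.6% passed), 1.47 ± 0.32 in monocytes (edgeR adjusted p = 0.00617, 6.01% passed) and 2.58 ± 0.54 in macrophages (edgeR adjusted p = 0.00619, 16.6% passed). Each of these rests on the 2 mice of the single control CD40 pool, and the cDC2 value also on only 2 mice of B2m-null CD40. The macrophage value was 2.24 without control CD40 mouse 1 (edgeR adjusted p = 0.068), and the cDC2 value lost its call without control CD40 mouse 1 (1.83) or mouse 2 (2.17).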

How the results depend on the processing

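The rise of Cxcl9 and Cxcl10 in monocytes and macrophages and of Cxcl9 in conventional dendritic cells with anti-CD40 in B2m-null tumours kept its direction and its side of the threshold under every alternative run over the whole set of cells, and so did the rise of Cxcr3 in CD8 T cells of control tumours. For the other results below the cause was not tested, beyond the smaller number of samples where lanes or mice were left out. Values are log2 differences with edgeR adjusted p unless another tool is named.

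With the lane as the unit over assigned cells, in monocytes and macrophages Cxcl9 gave 0.90 for anti-CD40 in control tumours and 1.17 for the difference of responses. The 2 control CD40 lanes, technical replicates of 1 pool, were summed to 1 unit here and with all cells below. Values that involve control CD40 thus have no replicate in that group and are given as effect sizes only. Under the same setting Cxcl10 gave -1.72 between genotypes under isotype (p 0.0565) and 2.45 for the difference. In dendritic cells the difference of responses was 1.86 for Cxcl9. There Cxcl9 gave -1.32 under isotype, and Cxcl10 1.56 with anti-CD40 in B2m-null tumours and -1.25 under isotype, none past the threshold. Cxcr3 in CD8 T cells gave 1.70 in B2m-null tumours (p 0.0857). With lanes over all cells that were not hashtag doublets, Cxcl9 gave 0.90 in monocytes and macrophages of control tumours. The difference of responses was 2.40 for Cxcl10 in these cells and 1.91 for Cxcl9 in dendritic cells. The other results above were -1.68 for Cxcl10, then -1.39 for Cxcl9 and 1.36 and -1.41 for Cxcl10 in dendritic cells. For Cxcr3 the value was 1.75, and none of these others was past the threshold.

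Cells thinned to 1000 UMIs gave a called fall of Cxcl10 in monocytes and macrophages of control tumours (-1.30, p 0.0346), a called difference for Cxcl10 in dendritic cells (2.48), -0.091 for Cxcl9 there in control tumours, and for Cxcr3 1.13 with anti-CD40 in B2m-null tumours in CD8 T cells (0.0802), 1.03 in CD4 T cells between genotypes under anti-CD40 (0.0186) and 0.089 in NK cells. limma-voom with a lane block gave 1.46 and -1.36 for Cxcl10 in dendritic cells and 1.61 for Cxcr3 in CD8 T cells, none called, and 0.86 in CD4 T cells between genotypes under anti-CD40, called. With at least 50 cells per mouse Cxcl10 in dendritic cells gave 1.27 (not called) and CD4 T cell Cxcr3 0.86 (called). Marker gates gave 0.80, -1.05 and -0.14 for Cxcl10 in dendritic cells and 1.84 for the Cxcl9 difference, none called, and 0.54 for Cxcr3 in NK cells between genotypes under anti-CD40. DESeq2 gave -1.37 (0.0597) and 2.39 (0.0442) for Cxcl10 in dendritic cells, and no adjusted p for 5 results. With at most 5% mitochondrial counts Cxcl10 in dendritic cells gave -1.5 and Cxcr3 1.84 in CD8 T cells, neither called, and -0.057 in CD4 T cells. Without the 5% highest Scrublet scores Cxcl10 in dendritic cells gave -1.39 (not called), and Cxcr3 0.83 in CD4 T cells (called) and 0.0064 in NK cells. With no filter the Cxcl10 difference in dendritic cells (2.30), CD8 T cell Cxcr3 between genotypes under isotype (1.16) and NK cell Cxcr3 in B2m-null tumours (1.03) were called, and at resolution 2 so was NK cell Cxcr3 with anti-CD40 in control (1.42) and B2m-null tumours (1.64).

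Within CD8 T clusters, chosen after the data were seen, Cxcr3 gave 0.15 and 0.63 with anti-CD40 in cluster 3 and 0.67 in cluster 6 of control tumours, none called. Called there were 1.53 between genotypes under isotype in cluster 8 and 0.57, 0.58 and 0.97 under anti-CD40 in clusters 3, 6 and 8, and the difference of responses was 0.49 in cluster 3. Replicate numbers did not pair the samples: over 12 pairs of groups and sets, the correlation of same-numbered lanes' deviations ran from -0.173 to 0.166. A replicate block changed 2 calls, to 1.17 for Cxcr3 in CD4 T cells (p 0.0189) and 1.21 in NK cells (0.0351), both with anti-CD40 in B2m-null tumours.

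Leaving out 1 mouse or lane gave these ranges. In monocytes and macrophages, Cxcl9 ran from -0.14 to 1.14 with anti-CD40 in control tumours (below 0 without control CD40 mouse 2), -1.92 to -1.36 between genotypes under isotype, -0.73 to 0.55 under anti-CD40 and 0.85 to 2.13 for the difference, and Cxcl10 from -1.94 to -1.08 under isotype and 1.92 to 2.90 for the difference, which was not called without control CD40 mouse 1 (2.24) or lane 1 of control isotype (1.92). In dendritic cells, Cxcl9 ran from -0.018 to 0.44 in control tumours, -1.98 to -1.28 under isotype and 1.75 to 2.5 for the difference, and Cxcl10 from -1.51 to 0.080, 0.82 to 2.15 in B2m-null tumours, -1.78 to -0.59 and 1.5 to 3.06. Cxcl10 in dendritic cells lost its call in B2m-null tumours without either of 2 mice or any of 3 lanes, and between genotypes without any of 8 mice or 4 lanes. Cxcr3 in CD8 T cells ran from 0.93 to 3.03 with anti-CD40 in B2m-null tumours, -0.15 to 1.60 between genotypes under isotype, -0.22 to 0.88 under anti-CD40 and -1.46 to 0.66 for the difference. In CD4 T cells it ran from -0.29 to 0.41, -0.092 to 1.28, -0.35 to 0.38, -0.34 to 1.09 and -0.18 to 1.26, and in NK cells from 0.072 to 1.87 in B2m-null tumours, -1.20 to 0.064, -1.04 to 0.40 and -0.65 to 1.15. Over all cells, Cxcl9 ran from 409.8 to 517 CPM with anti-CD40 in B2m-null tumours and -362 to -299 CPM between genotypes under isotype. Under anti-CD40 it ran from -261 to 51.9 CPM between genotypes. Cxcl10 ran from 225 to 379 CPM with anti-CD40 in B2m-null tumours and -438 to -337 CPM between genotypes under isotype. The exact tests no longer passed after adjustment without any of the 9 mice compared with anti-CD40 in B2m-null tumours. Nor did they pass under isotype without any of the 5 B2m-null isotype mice. With those mouse numbers even the smallest possible p could not pass after adjustment, so these losses follow from the number of mice.

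Other results were calls in single classes, genes of the lists, shares of cells and counts of called list genes. With a mouse or lane left out, 369 of their log2 values lost the call and 2306 kept it. Under other settings 269 lost it and 1162 kept it. Differences in shares of cells lost the call 64 times with a mouse left out and 12 times at other depths. No called share kept its call there: the 96 and 18 values that kept their side belong to shares that were not called. Counts of called list genes moved by over 1.5 times in 247 values and did not in 865 with a mouse or lane left out, and in 196 and 400 under other settings.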
